A study of Mus musculus with 6 samples.

Results

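The genes described here are Foxp3, the defining transcription factor of regulatory T cells, the Ikaros family of zinc finger factors Ikzf1 (Ikaros), Ikzf2 (Helios), Ikzf3 (Aiolos), Ikzf4 (Eos) and Ikzf5 (Pegasus), and Nt5e (CD73) and Entpd1 (CD39), the surface enzymes that turn extracellular ATP into adenosine. They are 8 of the 54525 genes in the deposited table and were taken by name. The set was chosen by the counts of KO against WT in these same libraries, in which Ikzf2 had been seen to be higher while Foxp3 was lower. The KO against WT values of these 8 genes are therefore a description and carry no test. All 8 passed the filter on low counts that left 16006 genes for testing.

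RNA was sequenced from 6 cultures of mouse CD4 T cells. Naive CD4 cells from spleen and lymph nodes of C57BL/6 mice had been stimulated for 72 h through CD3 and CD28 with recombinant human TGFβ and mouse IL-6, a mixture that drives cells toward the Th17 fate. The WT group was 3 cultures labelled iCD4-PRMT5fl/fl and the KO group 3 cultures labelled iCD4-PRMT5delta/delta, so the activation and the Th17 cytokines were shared by all 6. PRMT5 is the main enzyme that places symmetric dimethyl marks on arginine. The labels do not spell out "iCD4", the promoter of the Cre or an inducing agent, and do not give the age or sex of the mice. The KO column names join 2 numbers, the second being 51 in all 3, whereas the WT column names hold 1 number each. The sources used here do not say what these numbers mean, so the p-values measure only the spread between these samples, which may be technical in part.

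TGFβ alone can induce Foxp3 in activated CD4 cells, and IL-6 turns the same cells toward Th17 by way of STAT3, so a Th17 culture keeps a low level of Foxp3 transcript. Ikaros family proteins share DNA-binding zinc fingers for a GGGAA core and zinc fingers at their other end through which they pair with one another. They recruit chromatin complexes such as NuRD. Helios marks many thymus-derived regulatory T cells, Eos is a corepressor partner of Foxp3 in mice, Aiolos silences Il2 in mouse Th17 cells, and CD39 and CD73 are carried by regulatory T cells and also appear on Th17 cells made with TGFβ and IL-6. CD39 converts ATP and ADP to AMP, and CD73 converts AMP to adenosine.

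The libraries held between 36011906 and 43141474 counts, of which 0.161% to 0.216% were spike-in RNA, and 3 counts corresponded to 0.0695 to 0.0850 CPM (counts scaled to the size of the library). Each of the 8 genes had at least 199 counts in every library. All levels are CPM after TMM scaling. Prmt5 stood at 109, 137 and 118 CPM in WT replicates 1 to 3 and at 52.4, 43.8 and 52.9 CPM in the KO replicates, a log2 change of -1.29 ± 0.11 (SE). The summed Y-linked level was 0 CPM in every WT library and 566, 74.4 and 585 CPM in KO replicates 1 to 3. The WT libraries thus carried no Y-linked RNA, and KO replicate 2 carried the least of the KO libraries, so genotype and the sex of the cells were largely aligned. A pair of fits addressed this in part. In one KO replicate 2 stood for KO alone, and in the other the Y-linked level entered as a covariate. The covariate fit also rests mostly on KO replicate 2 against WT, so the fits are not separate checks. That library still carried Y-linked RNA, so neither fit separates sex from genotype. A call lost in both cannot be assigned to sex. The log2 changes from both fits are given for each of the 8 genes.

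The levels of the 8 genes in WT cultures spanned a wide range when divided by transcript length (CPM per kb of the deposited gene length, mean ± SD, n = 3). Nt5e stood at 71.7 ± 3.29 and Ikzf1 at 70.0 ± 1.68 CPM per kb, above 93.6% and 93.4% of the tested genes, and their ranges overlapped. Ikzf3 followed at 24.1 ± 1.93 and Ikzf5 at 8.19 ± 1.64 CPM per kb. Foxp3 stood at 4.34 ± 0.80 CPM per kb, above 49.9% of the tested genes, and just above Ikzf4 at 3.55 ± 0.26. The lowest Foxp3 library lay at 3.81 and the highest Ikzf4 library at 3.76 CPM per kb, so this pair was separated by little. Entpd1 stood at 1.41 ± 0.29 CPM per kb and Ikzf2 was last at 0.98 ± 0.17, above 28.6% of the tested genes. The lowest Entpd1 library lay at 1.17 and the highest Ikzf2 library at 1.16 CPM per kb, so this pair was nearly tied. Except for Nt5e and Ikzf1, neighbours in this order were separated in every library. The order depends on the length used (the closing section gives the levels with the median transcript length), and Ikzf2 was the lowest with either.

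In KO cultures the order was different. Ikzf1 led at 74.7 ± 4.23 CPM per kb, ahead of Nt5e at 49.96 ± 4.79 and Ikzf3 at 39.1 ± 1.61. Ikzf2 moved from last to the fifth place, at 7.43 ± 1.44 CPM per kb, next to Ikzf5 at 7.69 ± 0.59, whose range it overlapped. Foxp3, at 2.98 ± 0.34, came below Ikzf4, at 3.55 ± 0.13, and above Entpd1, at 1.71 ± 0.48.

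**Figure D1:**
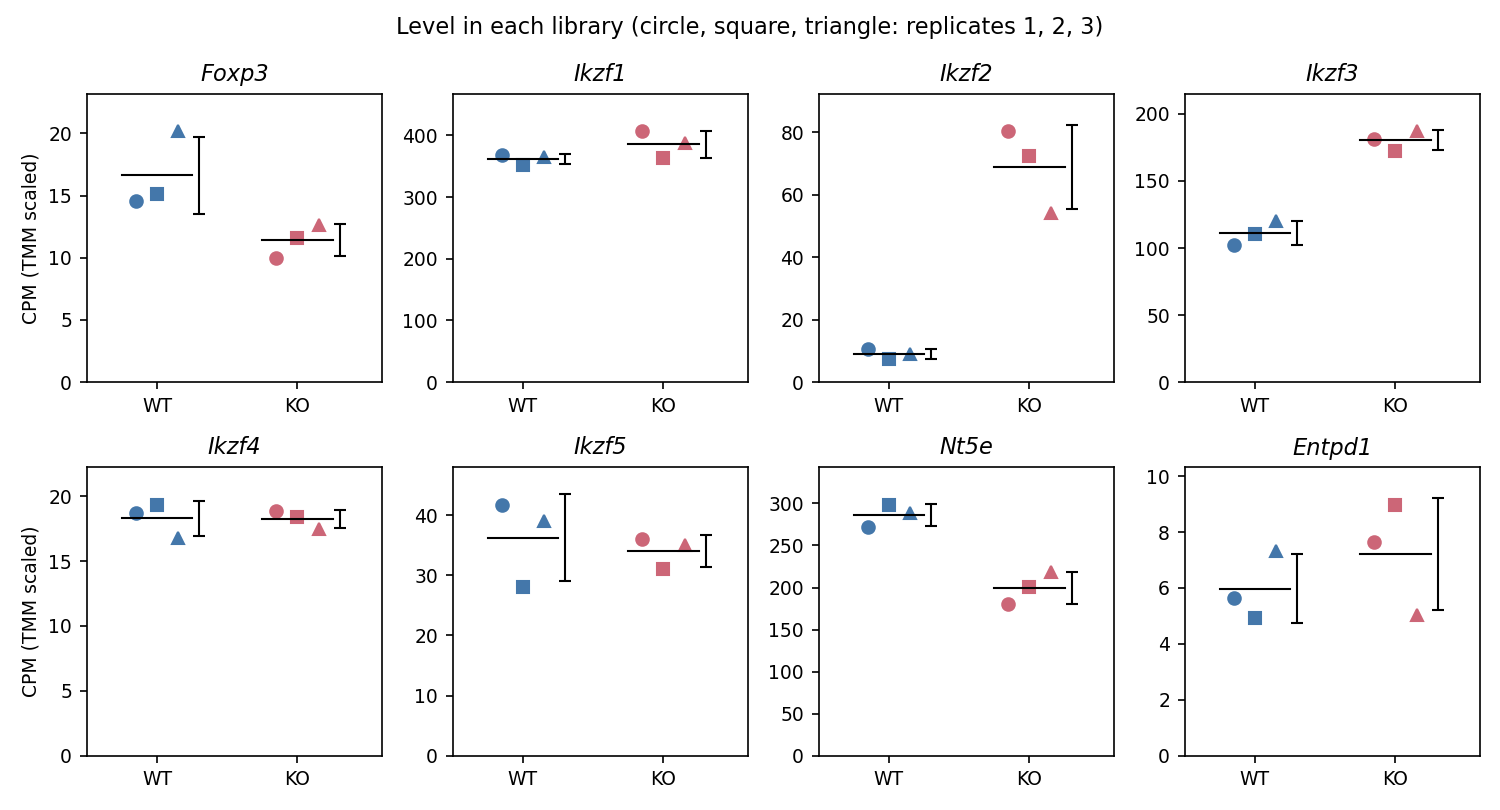
Level of each of the 8 genes in every library (CPM, linear axes from 0, one panel a gene), with WT in blue and KO in red; points are libraries, horizontal lines are group means and error bars are the SD over 3 libraries. Ikzf2 sits between 7.54 and 10.8 CPM in WT and between 54.1 and 80.3 CPM in KO, whereas the ranges of Ikzf1 and Ikzf4 overlap.

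Across all tested genes, edgeR's quasi-likelihood test called 6809 of 16006 genes at an adjusted p under 0.05, which is 42.5% of them (3466 higher in KO, 21.7%, and 3343 lower, 20.9%). The ranges of the groups did not overlap for 55.6% of genes, with KO higher for 28.2% and lower for 27.5%. Of the 8 genes, 4 were among those called, Ikzf2 and Ikzf3 higher and Foxp3 and Nt5e lower, and the same 4 had groups that did not overlap. Because the contrast chose the genes, nothing is read from these counts. The median log2 change was 0.05 over the 8 genes and -0.003 over all tested genes.

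Foxp3 (ENSMUSG00000039521; GRCm38 chromosome X, 7573644 to 7595245, plus strand) had 515, 616 and 822 counts in WT replicates 1 to 3 and 417, 438 and 544 counts in the KO replicates. Its level was 14.6, 15.1 and 20.2 CPM in WT and 10.02, 11.6 and 12.6 CPM in KO. Every KO library lay below every WT library, but the gap between the highest KO and the lowest WT library was small beside the range within WT. The mean was 16.6 ± 3.08 CPM in WT and 11.4 ± 1.30 CPM in KO (SD, n = 3), so KO stood at 68.6% of WT, a log2 change of -0.54 ± 0.15 (SE; 95% interval -0.90 to -0.19). The call of Foxp3 was lost without WT replicate 3 (log2 change -0.39), without KO replicate 1 (-0.45) and without KO replicate 2 (-0.55), and also under spike-in scaling (-0.44). With KO replicate 2 alone the log2 change was -0.52, and with the Y-linked covariate it was -0.52, neither past the threshold. The authors' deposited table gives -0.49.

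In bulk RNA, fewer cells that express a gene and less RNA per cell cannot be told apart, here and for every gene below. Foxp3 also overlaps other annotated genes. The noncoding RNA Flicr, which is known in mice to tune Foxp3 expression, overlaps it on the same strand. Flicr had 105, 137 and 144 counts in WT and 70, 60 and 67 in KO, a mean of 3.29 ± 0.29 CPM against 1.61 ± 0.07, and a log2 change of -1.03 ± 0.15 (edgeR adjusted p = 0.00115), which held under all 16 alternative settings. Ppp1r3f and Ccdc22 overlap Foxp3 on the other strand, at 5.05 and 1.43 CPM in WT. Whether the counting used strand is not given in the sources used here, so reads in these overlaps may be shared or dropped.

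The promoters of Foxp3 and Nt5e are shown because both genes were lower in KO and have entries in the promoter table (RefSeq, GRCm38.p6). Each window runs from 250 bases before to 50 after an annotated start, 5′ to 3′ on the plus strand, at chrX:7579426-7579725 for Foxp3 and chr9:88327359-88327658 for Nt5e. Capitals mark matches to the Ikaros core GGGAA (or TTCCC on the other strand) and to the TATA box TATAAA (or TTTATA).
Foxp3 promoter: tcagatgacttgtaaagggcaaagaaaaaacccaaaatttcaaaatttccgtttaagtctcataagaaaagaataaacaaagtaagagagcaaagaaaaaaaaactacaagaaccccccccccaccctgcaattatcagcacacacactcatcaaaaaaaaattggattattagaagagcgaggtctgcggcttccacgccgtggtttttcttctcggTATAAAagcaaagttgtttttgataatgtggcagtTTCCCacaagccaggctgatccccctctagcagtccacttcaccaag
Nt5e promoter: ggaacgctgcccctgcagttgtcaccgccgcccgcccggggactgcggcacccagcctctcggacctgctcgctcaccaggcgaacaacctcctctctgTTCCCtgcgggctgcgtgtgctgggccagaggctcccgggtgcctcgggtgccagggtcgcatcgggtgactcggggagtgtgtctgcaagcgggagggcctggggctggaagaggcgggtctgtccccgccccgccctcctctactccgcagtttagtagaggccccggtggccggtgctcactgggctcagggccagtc
The Foxp3 window holds TATAAA at position -32 from the start and TTCCC at position 3, and 40.7% of its bases are G or C. The Nt5e window holds TTCCC at position -151 and no TATAAA, and 71.0% of its bases are G or C. An Ikaros core of 5 letters occurs on either strand in 62.7% of the 32851 promoters of the table and the TATA box in 13.6%, and a match is only a match of letters. Foxp3 has a second entry, which holds neither. Ikzf2, Ikzf3 and Ikzf4 are not in the table.

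Ikzf2, which encodes Helios (ENSMUSG00000025997; chromosome 1, 69531214 to 69687245, minus strand), had 380, 307 and 363 counts in WT and 3342, 2728 and 2337 counts in KO. Its level was 10.8, 7.54 and 8.91 CPM in WT and 80.3, 72.3 and 54.1 CPM in KO. The groups were far apart, and KO replicate 3 was the lowest of the KO libraries. The mean was 9.07 ± 1.62 CPM in WT and 68.9 ± 13.4 CPM in KO, a ratio of 7.60 and a log2 change of 2.93 ± 0.18 (95% interval 2.50 to 3.36). Of all tested genes, 351 (2.19%) had a larger change in size, a rank that is no test because this change helped choose the gene. With KO replicate 2 alone the log2 change was 2.999, and with the Y-linked covariate 3.02. The authors' deposited table gives 2.91. The ratio of Ikzf2 to Foxp3 per length was 0.30, 0.21 and 0.18 in WT and 3.31, 2.57 and 1.77 in KO.

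Noncoding RNAs annotated in introns of Ikzf2 on its strand were detected mostly in KO. Gm29112 had 1, 4 and 2 counts in WT and 31, 31 and 13 in KO. Gm28112 had 0 counts in every WT library and 20, 17 and 14 in KO. Gm29114, annotated on the opposite strand, had 1, 4 and 0 counts in WT and 13, 8 and 5 in KO. None of the 3 had enough counts in WT to pass the filter there, so no test of them is given. Reads of the intronic RNAs and of unspliced Ikzf2 RNA cannot be told apart.

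Ikzf3, which encodes Aiolos (ENSMUSG00000018168; chromosome 11, 98464902 to 98546031, minus strand), stood at 102, 111 and 120 CPM in WT and 181, 172 and 187 CPM in KO. Each group was tight and the groups did not overlap. The mean was 111 ± 8.89 CPM in WT and 180.3 ± 7.43 CPM in KO, a log2 change of 0.70 ± 0.07 (95% interval 0.53 to 0.86). The log2 change was 0.64 with KO replicate 2 alone and 0.62 with the Y-linked covariate. Over the 16 alternative settings the log2 change ran from 2.80 to 3.09 for Ikzf2 and from 0.62 to 0.83 for Ikzf3.

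Ikzf1, the founding member of the family and the most abundant of it in these cells (ENSMUSG00000018654; chromosome 11, 11685003 to 11772926, plus strand), stood at 368, 352 and 365 CPM in WT and 407, 363 and 388 CPM in KO. The groups overlapped. The log2 change was 0.09 ± 0.06 (95% interval -0.04 to 0.23), and it was 0.011 with KO replicate 2 alone and -0.011 with the Y-linked covariate. Ikzf4 (ENSMUSG00000002578; chromosome 10, 128630843 to 128645991, minus strand), stood at 18.7, 19.4 and 16.8 CPM in WT and 18.9, 18.4 and 17.5 CPM in KO. The libraries of both groups were interleaved, and the 95% interval of the log2 change was -0.21 to 0.20. It was 0.02 in both fits that address the Y-linked RNA. Ikzf5, the most divergent member (ENSMUSG00000040167; chromosome 7, 131388652 to 131410521, minus strand), stood at 41.8, 28.0 and 39.04 CPM in WT and 36.1, 31.1 and 35.0 CPM in KO. WT replicate 2 was lower than every other library. The log2 change was -0.09 ± 0.15 (95% interval -0.44 to 0.26), and -0.25 without WT replicate 2, which was past the threshold. It was -0.22 with KO replicate 2 alone and -0.25 with the Y-linked covariate, neither past the threshold. Ikzf1 and Ikzf4 were past it under none of the alternatives.

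Divided by length, the 5 Ikaros family genes summed to 108, 103 and 110 CPM per kb in WT and to 139, 126 and 133 CPM per kb in KO. The KO sums were all above the WT sums. Ikzf1 made up 65.5% ± 1.02 of the family in WT and 56.4% ± 0.55 in KO (SD, n = 3). Ikzf3 made up 22.6% ± 1.69 and 29.5% ± 1.09. The share of Ikzf2 was 1.08%, 0.79% and 0.87% in the WT libraries and 6.24%, 6.18% and 4.39% in the KO libraries. Ikzf5 went from 7.64% ± 1.35 to 5.80% ± 0.20 and Ikzf4 from 3.33% ± 0.34 to 2.68% ± 0.14, while the CPM of Ikzf4 differed between the groups by less than the spread between replicates. Per length, the ratio of Ikzf2 to Ikzf4, the factors most tied to regulatory T cells, was 0.28 ± 0.05 in WT and 2.08 ± 0.33 in KO, and that of Ikzf3 to Ikzf1 was 0.34 ± 0.03 and 0.52 ± 0.02.

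**Figure D2:**
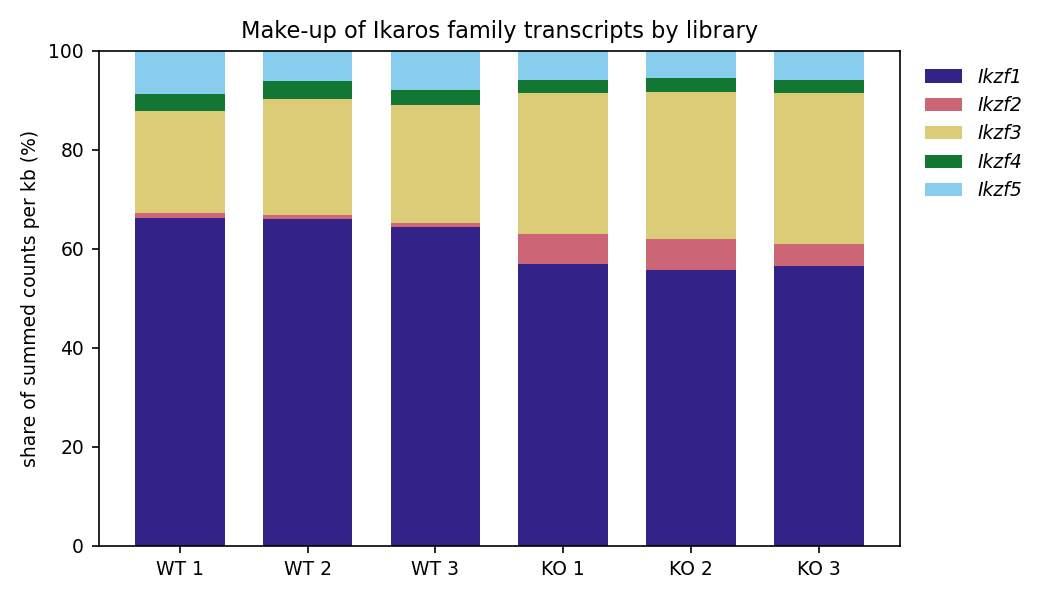
Share of the summed Ikaros family level (CPM per kb) held by each of the 5 genes in every library, in percent. The bar of each library starts at 0 and ends at 100; the Ikzf2 segment is 0.79% to 1.08% in WT and 4.39% to 6.24% in KO, and Ikzf1 is the largest in every library.

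Nt5e, which encodes CD73 (ENSMUSG00000032420; chromosome 9, 88327197 to 88372092, plus strand), stood at 272, 299 and 288 CPM in WT and 180, 200.3 and 218 CPM in KO. The highest KO library was below the lowest WT library. The mean was 286 ± 13.2 CPM in WT and 199.6 ± 19.1 CPM in KO, so KO stood at 69.7% of WT, a log2 change of -0.52 ± 0.08 (95% interval -0.70 to -0.34). The log2 change was -0.51 with KO replicate 2 alone and -0.52 with the Y-linked covariate, and the call was lost under spike-in scaling (log2 change -0.40).

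Entpd1, which encodes CD39 (ENSMUSG00000048120; chromosome 19, 40612366 to 40741602, plus strand), had 199, 201 and 299 counts in WT and 319, 339 and 217 in KO. Its level was 5.64, 4.94 and 7.34 CPM in WT and 7.66, 8.98 and 5.03 CPM in KO. KO replicate 3 lay within the WT range. The log2 change was 0.27 ± 0.24 (95% interval -0.29 to 0.83), so neither a lower level nor a rise of the order seen for Ikzf3 lay outside the interval. It was 0.09 without KO replicate 2, 0.48 without KO replicate 3, 0.44 without WT replicate 3 and 0.14 without WT replicate 2. It was 0.59 with KO replicate 2 alone and 0.68 with the Y-linked covariate. None of these was past the threshold. The ratio of Nt5e to Entpd1 per length was 51.1, 63.9 and 41.5 in WT and 24.8, 23.6 and 45.9 in KO, with groups that overlapped.

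**Figure D3:**
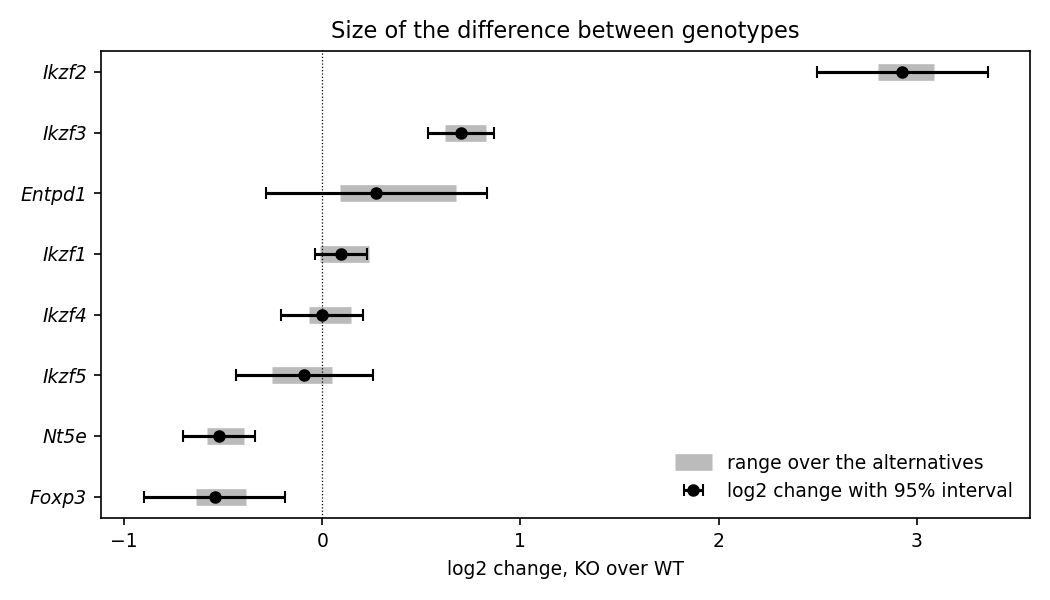
Log2 change of KO over WT of the 8 genes from edgeR (points) with 95% intervals (bars) and the range over the 16 alternative settings (grey bands); the dotted line marks no change. Ikzf2 lies at 2.93, Ikzf3 at 0.70, Nt5e at -0.52 and Foxp3 at -0.54, and the intervals of Ikzf1, Ikzf4, Ikzf5 and Entpd1 cross 0.

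Markers of other cells also differed between the groups. Summed markers of γδ T cells stood at 12.6 to 16.5 CPM in WT and at 102, 85.7 and 57.4 CPM in KO replicates 1 to 3, and 4 of their 6 genes in the table were tested and all 4 were higher. Trdc, the constant segment of the δ chain, averaged 0.67 CPM in WT and 7.40 CPM in KO, while Sox13 and Trdv4 had 0 or 1 count in each WT library and 1 to 8 counts in each KO library. Summed markers of NK cells and innate lymphoid cells stood at 31.5 to 37.8 CPM in WT and at 97.0, 82.7 and 48.0 CPM in KO. Of their 6 genes 4 were tested, with Klrk1, Eomes and Tyrobp higher and Klre1 lower (against 21.7% higher and 20.9% lower of all tested genes). However, Tyrobp passed the filter only through the KO libraries, and Ncr1 had 0 to 5 counts in WT and 7 to 20 in KO. Both sums ranked the KO libraries as Ikzf2 did, replicate 1 first and replicate 3 last. Ikzf4, which was not called, had that order too, and the B cell, myeloid and granulocyte sums had KO replicate 3 first. In WT the γδ T cell sum had the order of Ikzf2 and the NK sum did not. Their part in the level of Ikzf2 was not tested.

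B cell markers summed to 110 to 148 CPM in WT and to 338, 272 and 476 CPM in KO. Of these, 5 of 7 tested genes were higher (against 21.7% of all tested genes), and Cd79a among them passed the filter only through KO. Myeloid and dendritic markers summed to 4.45 to 9.32 CPM in WT and 16.6 to 43.8 CPM in KO, and Lyz2, Itgam, Itgax and Adgre1 passed the filter only through KO, so no count of calls is given for them. Granulocyte and mast cell markers summed to 0.59 to 0.84 CPM in WT and 11.2 to 41.9 CPM in KO. Mcpt8 and Cpa3, which made up most of the KO sums, passed the filter only through KO, and S100a8, S100a9, Elane and Gata2 were at 0 in every WT library and in KO replicate 1. CD8 T cell markers summed to 5.58 to 7.88 CPM in WT and 14.7 to 17.2 CPM in KO, with both genes higher (against 21.7% of all tested genes). B cells are known to express Ikzf3. The KO libraries had the same order for Ikzf3 as for the B cell sum, replicate 3 first and replicate 2 last, but also as for the sums of T cell, myeloid, granulocyte and Y-linked genes, and the WT orders of Ikzf3 and the B cell sum differed. T cell markers summed to 1613 to 1778 CPM in WT and 1628 to 1721 CPM in KO. Of their 7 tested genes 1 was higher (Cd3e), 1 lower (Cd28) and 5 not called (28.6% called, against 42.5% of all tested genes). The part of these markers in the levels of Ikzf3 and Entpd1 was not tested.

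**Figure D4:**
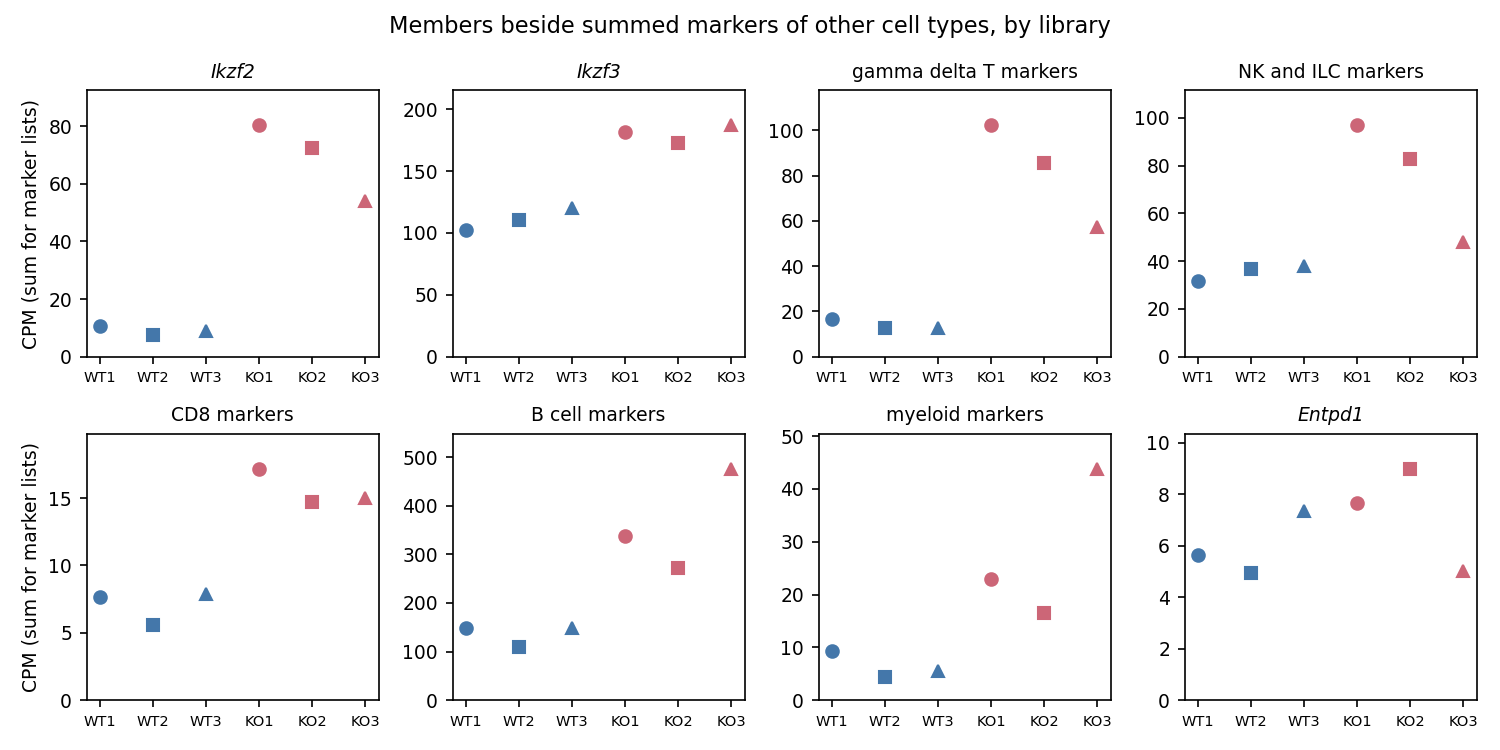
Ikzf2, Ikzf3 and Entpd1 beside the summed CPM of marker lists in every library (linear axes from 0; WT blue, KO red; circle, square and triangle for replicates 1, 2 and 3). The γδ T cell sum is 12.6 to 16.5 CPM in WT and 57.4 to 102 CPM in KO and, like Ikzf2, is lowest in replicate 3 of the KO libraries.

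Over the 6 libraries, the genes whose centred log2 levels lay nearest to those of Foxp3, by root mean square difference among 9209 genes, were Rara (0.08), Acyp1 (0.09), Hist1h1e (0.09), Il3ra (0.09) and Bcl2l11 (0.10). Those nearest to Ikzf2 were Gbp6 (0.20), Arrdc4 (0.20), Tcrg-C2 (0.21), Gbp9 (0.22) and Sntb1 (0.23). Rara encodes a retinoic acid receptor, Gbp6 and Gbp9 encode interferon-induced GTPases, and Tcrg-C2 is a constant segment of the γ chain and one of the γδ T cell markers above. These are descriptions over libraries that share the difference between the groups.

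Of the 20 coding genes that overlap the 8 genes or lie next to them, 14 were tested, with 2 higher, 4 lower and 8 not called, a share near that of all tested genes. Grb7, which encodes an adaptor protein and lies 9529 bases from Ikzf3, rose from 1.62 to 7.63 CPM (log2 change 2.24 ± 0.16; edgeR adjusted p = 5.86e-05). Suox, which encodes sulfite oxidase and lies next to Ikzf4, rose from 29.9 to 61.8 CPM (log2 change 1.05 ± 0.06; edgeR adjusted p = 3.56e-05). Usp27x, the coding gene before Foxp3, fell from 10.01 to 4.20 CPM (log2 change -1.25 ± 0.13; edgeR adjusted p = 0.000311). Ppp1r3f, Fignl1 and Cc2d2b were called lower with edgeR adjusted p of 0.0348, 0.0494 and 0.0458, and lost the call under many of the alternatives. The neighbours of Ikzf2, Erbb4 and Spag16, had at most 3 counts in any library. Antisense RNAs of 2 family members were lower in KO while those members were not called. Gm12000, opposite Ikzf1, had a log2 change of -0.98 (edgeR adjusted p = 0.0222; lost under 6 of the 16 alternatives) and Gm26876, opposite Ikzf4, one of -1.32 (edgeR adjusted p = 0.0047; lost in both fits that address the Y-linked RNA).

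Factors that act around Foxp3 moved in both directions. Of 22 genes known to induce or sustain Foxp3, 9 were higher, 5 lower and 8 not called (63.6% called, against 42.5% of all tested genes; median log2 change 0.05). Under spike-in scaling 6 were higher and 1 was lower. All 3 members of the NR4A family of nuclear receptors, which activate Foxp3, rose. Nr4a1 went from 9.30 to 22.5 CPM (log2 change 1.27 ± 0.11; edgeR adjusted p = 0.000129), Nr4a2 from 3.46 to 8.19 CPM and Nr4a3 from 14.5 to 23.0 CPM. The NF-κB subunit Rel, which binds a Foxp3 enhancer, rose from 30.3 to 47.1 CPM. In the other direction, Ets1, which binds the conserved Foxp3 region CNS2, fell from 383 to 209 CPM (log2 change -0.88 ± 0.11; edgeR adjusted p = 0.000636). Tet2, which removes DNA methylation, fell from 131 to 89.2 CPM (log2 change -0.56 ± 0.07; edgeR adjusted p = 0.00066). Tet3, a paralog of Tet2, was called in the opposite direction and rose from 25.8 to 37.8 CPM. Stat5b, Stat5a and Smad4, through which IL-2 and TGFβ reach the gene, were not called, with log2 changes of -0.12, 0.01 and -0.09. Smad2 was called higher at a log2 change of 0.17, but lost the call under 11 of the 16 alternatives. Smad3 was not called, at a log2 change of -0.22.

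Of 14 genes that oppose Foxp3, 4 were higher, 4 lower and 6 not called (57.1% called, against 42.5% of all; median -0.16), and under spike-in scaling 5 were higher and 2 lower. Rora, a Th17 nuclear receptor, rose from 54.0 to 132 CPM (log2 change 1.29 ± 0.09; edgeR adjusted p = 5.97e-05). The DNA methyltransferase Dnmt3a rose from 86.5 to 128 CPM, Gata3, the Th2 regulator, from 3.12 to 5.97 CPM, and Tbx21, the Th1 regulator, from 5.06 ± 2.56 to 16.7 ± 5.23 CPM. Hif1a, whose product binds Foxp3 protein and leads to its breakdown, fell from 1953 to 1188 CPM (log2 change -0.72 ± 0.09; edgeR adjusted p = 0.000717), and Stub1, a ubiquitin ligase of Foxp3 protein, from 32.4 to 20.8 CPM. Dnmt1, another DNA methyltransferase, was called lower, unlike Dnmt3a, and fell from 611 to 442 CPM. Uhrf1 was also called lower and fell from 105 to 71.9 CPM. These calls were lost under 4 and 6 of the 16 alternatives. Stat3, which carries the IL-6 signal, was not called, at 335 ± 115 CPM in WT and 313 ± 27.4 CPM in KO. WT replicate 2 stood far above the other WT libraries for Stat3 and Stat6 and far below them for Akt1, none of which was called.

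Of 12 cofactors of Foxp3 protein, 1 was higher, 2 lower and 9 not called (25% called, against 42.5% of all genes; median -0.07). Irf4, which Foxp3 uses and which Th17 differentiation needs, fell from 1516 to 540 CPM (log2 change -1.49 ± 0.08; edgeR adjusted p = 2.58e-05). Hdac9, a histone deacetylase that restrains regulatory T cells in mice, stood at 0.11 CPM in WT, 1 to 8 counts per library, and 2.82 CPM in KO, and passed the filter only through KO. Yy1 was called at a log2 change of -0.16 (edgeR adjusted p = 0.0317), but under 13 of the 16 alternatives it was not. Usp7, Ezh2, Trim28 and Sirt1 were not called.

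Of 31 surface and effector genes of regulatory T cells, 29 were tested, and 10 were higher, 13 lower and 6 not called (79.3% called, against 42.5% of all; median -0.03). Il12a, one of those called higher, passed the filter only through KO. Icos, a costimulatory receptor, fell from 582 to 145 CPM and the chemokine receptor Ccr4 from 193 to 48.5 CPM. Il2ra, the high-affinity IL-2 receptor chain, fell from 484 to 215 CPM (log2 change -1.17 ± 0.10; edgeR adjusted p = 0.000107), and Lrrc32, which holds latent TGFβ on the surface, from 18.5 to 5.398 CPM. Both integrin genes named by the lowest p rose. Itgae, the α chain CD103, rose from 7.63 to 97.7 CPM (log2 change 3.67 ± 0.25; edgeR adjusted p = 5.00e-05) and Itgb8, whose product activates latent TGFβ, from 0.92 to 6.49 CPM (log2 change 2.81 ± 0.20; edgeR adjusted p = 6.21e-05). Capg, Nrp1 and Ccr8 were not called.

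A further list held other genes of extracellular ATP and adenosine, and P2 family receptors taken by name whatever their ligand. Of its 29 genes 23 were tested, and 9 were higher, 4 lower and 10 not called (56.5% called, against 42.5% of all; median 0.25). P2rx1, called higher, and Entpd3, called lower, passed the filter only through the group where they are high. Enpp1, an enzyme that splits ATP to AMP outside the cell, fell from 68.2 to 21.7 CPM (log2 change -1.65 ± 0.11; edgeR adjusted p = 4.39e-05). Entpd5, a relative of CD39 in the endoplasmic reticulum, fell from 70.7 to 36.1 CPM, and P2rx7, the ATP-gated channel, from 41.3 to 15.6 CPM (log2 change -1.41 ± 0.15; edgeR adjusted p = 0.00036). Adk, which phosphorylates adenosine, rose from 55.3 to 87.5 CPM (log2 change 0.66 ± 0.06; edgeR adjusted p = 0.000134). P2ry14, a P2 family receptor by name, rose from 1.25 to 4.98 CPM, and P2rx1 stood at 0.26 CPM in WT and 0.97 CPM in KO. Dpp4, Slc29a1, the adenosine transporter, and Panx1, the ATP release channel, were not called. Adora2a, the main adenosine receptor of T cells, was looked up after its value was seen and was called higher, at 6.12 and 10.1 CPM (log2 change 0.72; edgeR adjusted p = 0.00983), but in neither fit that addresses the Y-linked RNA.

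Of 17 genes for the chromatin complexes that Ikaros proteins recruit, 3 were higher, 1 lower and 13 not called (23.5% called, against 42.5% of all; median -0.06). Mbd2, a NuRD subunit that binds methylated DNA, fell from 333 to 238 CPM (log2 change -0.48 ± 0.05; edgeR adjusted p = 0.000422). The histone-binding subunit Rbbp4 rose from 111 to 156 CPM (log2 change 0.49 ± 0.07; edgeR adjusted p = 0.000981), and Gatad2b from 21.3 to 27.2 CPM. Sin3b was called at a log2 change of 0.19 (edgeR adjusted p = 0.0423), and lost it under 9 of the 16 alternatives. Chd4, the NuRD helicase, Mta2, Rbbp7, Hdac1 and Ctbp2 were not called.

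Of 8 genes that control the stability of Ikaros and Aiolos proteins, 2 were higher, 3 lower and 3 not called (62.5% called, against 42.5% of all; median -0.13), and under spike-in scaling 2 were higher and 1 lower. Crbn, the substrate receptor of the ubiquitin ligase that breaks down Ikaros and Aiolos in the presence of lenalidomide in human cells, rose from 110 to 162 CPM (log2 change 0.56 ± 0.06; edgeR adjusted p = 0.000318). Csnk2a2, a catalytic subunit of casein kinase 2, which phosphorylates Ikaros, rose from 32.5 to 51.3 CPM. Its paralog Csnk2a1 fell from 372 to 321 CPM, Ddb1 from 781 to 654 CPM and Rbx1 from 134 to 119 CPM. Cul4a, Cul4b and Csnk2b were not called.

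Of 16 genes known to be under Ikaros family control, 13 were tested, and 8 were higher, 4 lower and 1 not called (92.3% called, against 42.5% of all; median 0.73). With the Y-linked covariate 2 of them were called higher and 4 lower, so most of the higher calls were lost, while the median log2 change was 0.65. The list holds Cd8a, which is also a CD8 T cell marker. Ifng, at 40.6, 26.9 and 12.04 CPM in KO replicates 1 to 3, and Tbx21, at 21.9, 16.8 and 11.4 CPM, had the KO order of the γδ T cell and NK sums, whose part in these values was not tested. Il2, which Ikaros and Aiolos repress, rose from 20.6 to 34.1 CPM (log2 change 0.73 ± 0.15; edgeR adjusted p = 0.00567). Ifng rose from 0.93 ± 0.08 to 26.5 ± 14.3 CPM (log2 change 4.84 ± 0.47; edgeR adjusted p = 0.000218). Dntt, the template-free DNA polymerase of lymphocyte progenitors, fell from 81.2 to 17.6 CPM (log2 change -2.21 ± 0.13; edgeR adjusted p = 3.55e-05), Bcl2, which keeps T cells alive, from 198 to 87.7 CPM, Prdm1, which encodes Blimp-1, from 3.29 to 0.74 CPM and Myc from 72.6 to 43.2 CPM. Il7r was not called. Hes1, Rag1 and Rag2 were too low for the test. Tbx21, Satb1, Prdm1 and Cd8a of this list also stand in another of the lists used here.

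**Figure D5:**
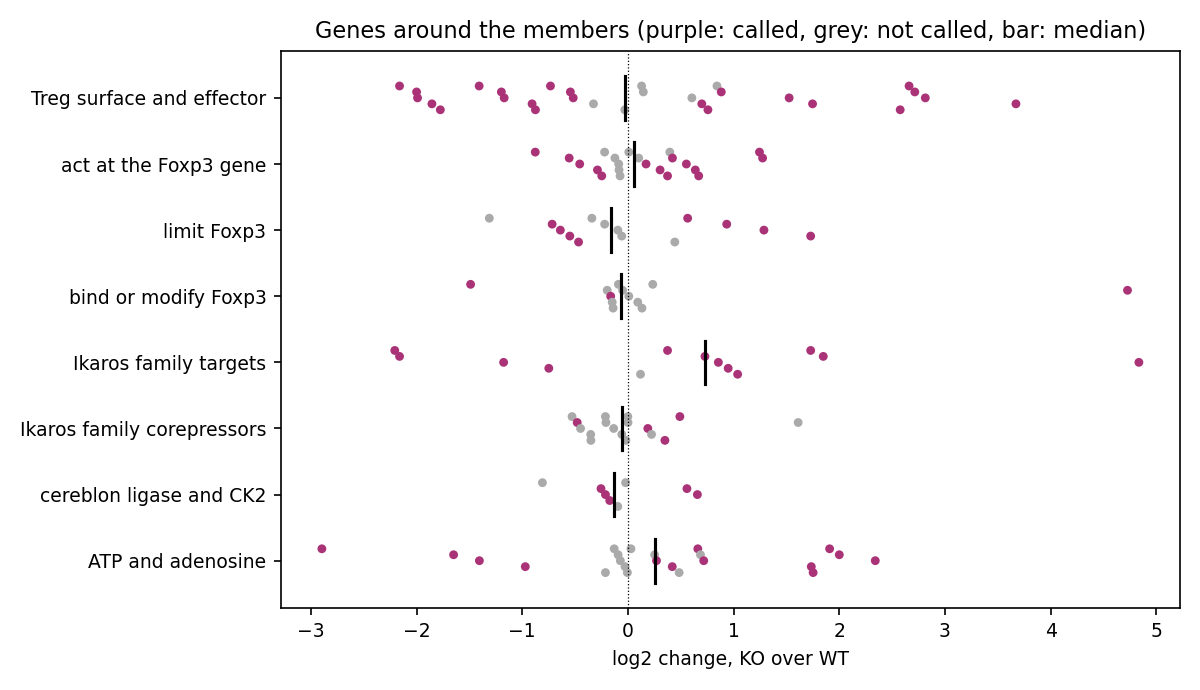
Log2 change between KO and WT of every tested gene in the 8 lists, with called genes in purple, the others in grey and a bar at each list's median. The list of Ikaros family targets has its median at 0.73, and the other 7 medians lie between -0.16 and 0.25.

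The lists of Foxp3 inducers, of opposing genes and of regulatory T cell surface genes each held called genes in both directions, and the sign of their medians depended on the setting for all lists but that of Ikaros family targets, whose median stayed between 0.58 and 0.88. Under spike-in scaling, which moved the median of all genes to 0.14, Foxp3 lay at -0.58 and Nt5e at -0.53 relative to that median, Ikzf2 at 2.95 and Ikzf3 at 0.69. The calls of Nr4a2, Rel, Tbx21 and Il2 were lost in both fits that address the Y-linked RNA, those of Tet2, Stub1 and Gatad2b under spike-in scaling and with KO replicate 2 alone, and those of Mbd2 and Ddb1 under spike-in scaling. That of Csnk2a1 was lost in all 3 settings, and that of Rbx1 under 10 of the 16.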

How the data were processed

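RNA-seq counts per gene were deposited by the authors for 6 libraries of total RNA (stranded, ribosomal RNA removed, per the labels' protocols), in 1 table with scaled values and a comparison. STAR, featureCounts, DESeq and DESeq2 are named in the submitters' processing notes with the build GRCm38.p3, without role or version, and strand use in counting is not given in the sources used here. Per the file headers, the table also holds deposited scaled signal values, a log2 fold change and p-values. From these columns only the authors' log2 change was used. The numbers in the column names tie each to a sample title.

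The 92 spike-in rows stayed out of library sizes. Genes were filtered with filterByExpr (minimum count 10, total 15), scaled by TMM and tested with edgeR 4.0.16 (quasi-likelihood, KO against WT, R 4.3.3) with Benjamini-Hochberg adjustment at 0.05. SE is the unshrunk coefficient divided by the square root of F. "Called" means past that threshold. Positions are from GENCODE M21 (GRCm38) and promoters from RefSeq. The code was tested on simulated data.

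The members and lists were chosen with earlier results of these data known. From each list the text names up to 6 tested genes with the lowest p and up to 3 uncalled genes with the highest level. Tet3, Smad2, Smad3, Dnmt1 and Uhrf1 are named outside that rule. For Foxp3 and Ikzf2 the 5 genes nearest in pattern with a mean of at least 5 CPM are named. The 16 alternatives were DESeq2 1.42.0, limma-voom 3.58.1, RLE, upper-quartile and spike-in scaling, no filter, a mean of 1 CPM, leaving out each library, the replicate block, KO replicate 2 standing alone for KO and the Y-linked covariate. Other lengths were tried for levels and shares. Intervals and floors cover counting error or the spread between samples only.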

Additional observations from a re-analysis of the deposited data

How the results depend on the processing

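Of 360 values under the alternatives, 319 were counted as unchanged, and none was reversed among called values. Unchanged means a move smaller than the spread between replicates or, for counts of called genes, a change within a set factor. The side of the threshold did not enter, so Foxp3 counts as unchanged also where its call was lost. Among the 8 genes, Ikzf2 (log2 change 2.80 to 3.09) and Ikzf3 (0.62 to 0.83) were called under all 16 settings, Nt5e under 15 (-0.58 to -0.40) and Foxp3 under 10 (-0.64 to -0.39). Ikzf5 was called once, without WT replicate 2. Because the contrast chose the 8 genes, their calls describe only how far they depend on the processing and are no test. Spike-in scaling called 4448 genes (69.4% of them higher, against 50.9% with TMM and 57.0% with upper-quartile scaling), 2 of the 8 genes, 7 inducers, 2 corepressors and 3 turnover genes. It gave log2 changes of 0.24 for Ikzf1, 0.83 for Ikzf3, 0.15 for Ikzf4 and -0.40 for Nt5e. With no filter 8 corepressor genes were called. With KO replicate 2 alone, whose spread is assumed to be that of WT, 2752 genes were called, with 5 inducers, 4 opposing genes, 15 regulatory T cell genes, 7 adenosine genes, 3 turnover genes and 6 targets, and Ikzf1 had a log2 change of 0.011. With the Y-linked covariate 3460 genes were called, with 7 inducers, 5 opposing genes, 7 adenosine genes, 3 turnover genes and 6 targets, and the log2 changes were -0.011 for Ikzf1 and 0.68 for Entpd1. The cause of these shifts was not tested. With the median transcript length in place of the deposited one, WT levels per kb were 295 for Ikzf1, 91.7 for Nt5e, 50.8 for Ikzf5, 49.1 for Ikzf3, 13.5 for Ikzf4, 12.6 for Entpd1, 8.79 for Foxp3 and 4.76 for Ikzf2. Without division by length, the family shares were 67.4% for Ikzf1, 20.7% for Ikzf3 and 1.69% for Ikzf2 in WT, and 26.3% for Ikzf3, 10.01% for Ikzf2 and 4.95% for Ikzf5 in KO. Leaving out each library in turn gave 5203 to 7033 called genes, 3 to 5 of the 8 genes and 3 to 7 corepressor genes, the 7 without WT replicate 2. Replicate numbers did not pair the samples (correlations of -0.02, 0.01 and 0.08 for same-numbered libraries). The fit with the replicate block called 6190 genes and the same 4 of the 8.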
